A study of Mus musculus with 28 samples.

Results

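PAC organoids are colon epithelium organoids of C57BL/6N mice that carry Villin::CreERT2, 2 floxed copies of Apc (Apc flox/flox) and 1 copy of Trp53 LSL-R172H beside a normal Trp53 allele. The series holds 28 RNA-seq libraries, and 8 of them are PAC libraries: the donor lines Col290 and Col313, each in duplicate, treated with 4-hydroxytamoxifen (4-HT) or with ethanol (EtOH) as the control. They were chosen by genotype and treatment alone, and all 13519 listed genes entered the comparison. 4-HT was given at 3.5 µM for 24 hours, and RNA was taken 3 days after recombination. The duplicates were different passages of a line, so the 4 cultures of a treatment came from 2 donors. The p-values measure the spread within groups of genotype and treatment, estimated over all 28 libraries. That spread holds donor and culture differences together, and part of it may be technical. Every genotype of the series carries Villin::CreERT2 and Apc flox/flox. AC organoids carry nothing further, and BPAC organoids carry Braf floxV600E/+ as well as Trp53 LSL-R172H/+. BAC organoids carry Braf floxV600E/+ and no Trp53 LSL allele. They entered the shared fit and the library checks but are not compared here. A 4-HT-treated line without the floxed alleles was not analysed here, so the drug and the recombination cannot be told apart.

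In the Wnt pathway, a destruction complex built on the scaffolds APC and AXIN marks beta-catenin for degradation. When APC is lost, beta-catenin accumulates, enters the nucleus and switches on target genes through the TCF/LEF factors. In the colon this program is normally held to the crypt base, where LGR5-positive stem cells divide, and it fades as cells move up and become absorptive colonocytes or mucus-secreting goblet cells. Trp53 encodes p53, the stress-activated transcription factor that induces cell cycle inhibitors and death genes. The LSL cassette is a stop signal that silences the R172H copy until Cre removes it. By design, EtOH-treated PAC organoids thus have 1 working Trp53 allele and 4-HT-treated ones also express the mutant. Counts per gene do not tell the mutant transcript from the normal one. Villin directs CreERT2 to the gut epithelium. The culture medium held Wnt3a, R-spondin-1, EGF, Noggin and an inhibitor of GSK3, a kinase of the destruction complex, so the EtOH controls were themselves Wnt-stimulated.

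A check of line identity preceded the comparison, since 2 of the 4-HT libraries stood apart from their labels. Xist, the RNA that coats the silenced X chromosome of female cells, had 7, 4 and 0 counts in Col290_EtOH1, Col290_EtOH2 and Col290_4HT2. It had 1495, 2402 and 1935 counts in Col313_EtOH1, Col313_EtOH2 and Col313_4HT2. The Y-linked genes Ddx3y, Eif2s3y, Kdm5d and Uty summed to 3731, 3032 and 2499 counts in those Col290 libraries and to 0 in the Col313 ones, which allows up to 3 counts each. The library labelled Col290_4HT1 held both, with 834 Xist counts and 1822 Y-linked counts. The library labelled Col313_4HT1 also held both, with 636 and 1543 counts. Levels are given as CPM, the reads of a gene scaled to library depth by the TMM method. Relative to the mean CPM of the unmixed libraries, Y-linked transcripts stood at 42.2% and 41.0% and Xist at 34.7% and 30.3% in these 2 libraries.

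**Figure D1:**
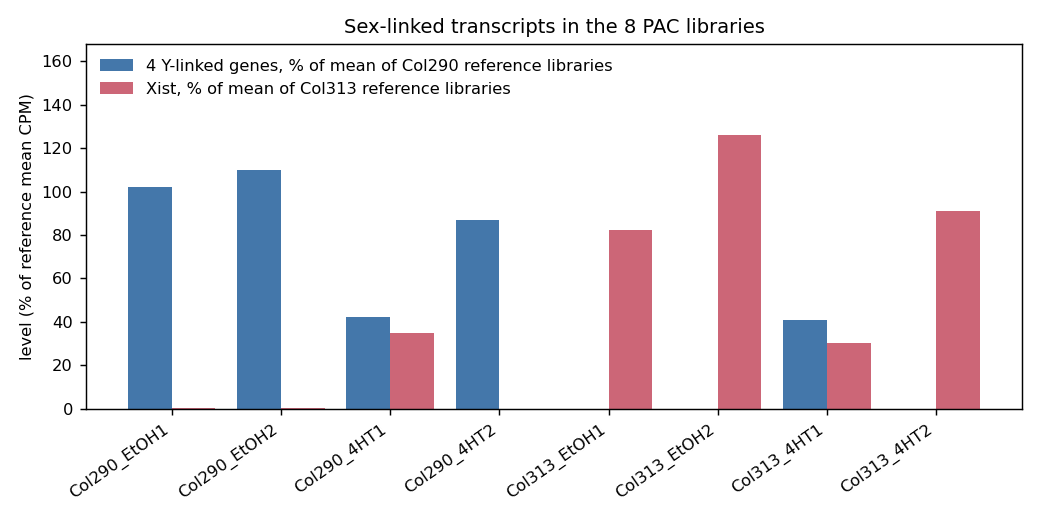
Bars give the summed CPM of 4 Y-linked genes (blue, percent of the mean of the 3 unmixed Col290 libraries) and of Xist (red, percent of the mean of the 3 unmixed Col313 libraries) in each PAC library. Col290_4HT1 and Col313_4HT1 show both bars, between 30.3% and 42.2%, whereas each of the other 6 libraries shows 1 kind.

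Autosomal genes that differed between the lines were less uniform. Gm8116, for example, stood at 5.37, 4.27 and 6.55 CPM in the unmixed Col290 libraries, at 0.281, 0.229 and 0.274 CPM in the unmixed Col313 ones, and at 4.32 and 4.26 CPM in Col290_4HT1 and Col313_4HT1, which is the level of Col290 in both. Cdk5rap1 was at 8.88, 6.32 and 8.73 CPM in Col290, at 28.1, 27.1 and 24.7 CPM in Col313, and in between, at 15.2 and 16.7 CPM, in these 2 libraries. Over 28 autosomal genes picked on the EtOH libraries, the median position between the lines (0 for Col290, 1 for Col313) was 0.53 and 0.54 for the 2 libraries, but it was also 0.59 for Col313_4HT2, so the autosomal score did not separate a mix from an effect of treatment. The log2 CPM values of Col290_4HT1 and Col313_4HT1 correlated at 0.997 across genes, and their median squared deviation was 0.813 where counting alone gives 0.455. The next closest pair of libraries within any group of the series was at 1.74. They were closer to each other than any other pair but differed by more than sampling noise. Preparations of 1 RNA pool can also differ by more than counting noise, so they may not be separate samples. Both entered the comparison as labelled, and results are also given without them and with their counts summed as 1 library. How they came to hold both lines was not tested.

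The PAC libraries held 20956557 to 30306835 counts. Loci that collect ribosomal RNA reads (Lars2, Gm23935, Gm26917 and CT010467.1, a set chosen after their values were seen) took 2.28% to 10.3% of counts with EtOH and 2.92% to 5.20% with 4-HT, and mitochondrial genes took 1.59% to 6.43% and 1.08% to 2.47%. The highest share of both was in Col290_EtOH2. The part of these shares in the results below was not tested. Of 12 markers of fibroblasts, immune and endothelial cells, 9 were not listed and Cd3e, Itgam and Pecam1 summed to 3.05 to 4.56 CPM with EtOH and 1.70 to 2.23 CPM with 4-HT, while the epithelial marker Epcam stood between 1830 and 2970 CPM in the PAC libraries.

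Both targeted genes were read first. In what follows, 4 values of a treatment are in the order Col290 duplicate 1, Col290 duplicate 2, Col313 duplicate 1 and Col313 duplicate 2, so that with 4-HT the duplicate 1 values come from the mixed libraries. Trp53 (chromosome 11, 69580359 to 69591873, plus strand, GRCm38) was at 57.2, 56.5, 51.9 and 66.0 CPM with EtOH and at 178, 155, 174 and 155 CPM with 4-HT. All 4 values with 4-HT lay above all 4 with EtOH, a rise of 1.51 ± 0.11 on the log2 scale, as all changes below are (SE; edgeR quasi-likelihood test, adjusted p = 3.48e-09). Without the mixed libraries the rise was 1.42. In AC organoids, with 2 normal Trp53 alleles, Trp53 averaged 112 ± 5.18 CPM (SD, n = 2) with EtOH and 187 ± 8.44 CPM with 4-HT, against 57.9 ± 5.92 and 165 ± 12.5 CPM (SD, n = 4) in PAC. Trp53 thus rose in AC as well, by 0.74 ± 0.15 (edgeR, adjusted p = 0.00168). The 4-HT change in PAC exceeded that in AC by 0.77 ± 0.18 on the log2 scale, which did not pass the test across all genes (edgeR, adjusted p = 1.0).

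Apc, the scaffold of the destruction complex, was at 32.3, 49.7, 27.9 and 39.1 CPM with EtOH and at 51.5, 66.6, 51.4 and 68.0 CPM with 4-HT. The groups did not overlap, and Apc rose by 0.67 ± 0.17 (edgeR, adjusted p = 0.00297). Counts per gene do not show the loss of a single exon, so they do not check the deletion itself.

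4-HT changed a large part of the transcriptome of PAC organoids. At an adjusted p under 0.01, 3166 of 13519 genes passed, which is 23.4% of the genes tested: 1511 rose (11.2%) and 1655 fell (12.2%). Of all genes, 32.1% had 4 values with 4-HT that did not overlap the 4 with EtOH, and 2969 of the 3166 called genes were among them. Without the 2 mixed libraries 957 genes passed (7.08%), 451 of them up and 506 down, and 944 of these were among the 3166, all in the same direction. With the mixed libraries summed into 1, 2259 genes passed. Of the 147 genes chosen to be named, 53 lost the call without the mixed libraries. All 53 kept the direction, 13 with a change at least as large, and the ratio of the log2 change without to that with these libraries had a median of 0.84 (0.48 to 1.32). The direction of calls depended on the scaling: with library sizes alone, 3388 genes rose and 737 fell, a share of rises of 82.1% against 47.7%, and the median log2 change of all genes was 0.20 in place of -0.03. Changes below are relative to TMM scaling, and a change smaller than this shift can take the other sign with library sizes alone.

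**Figure D2:**
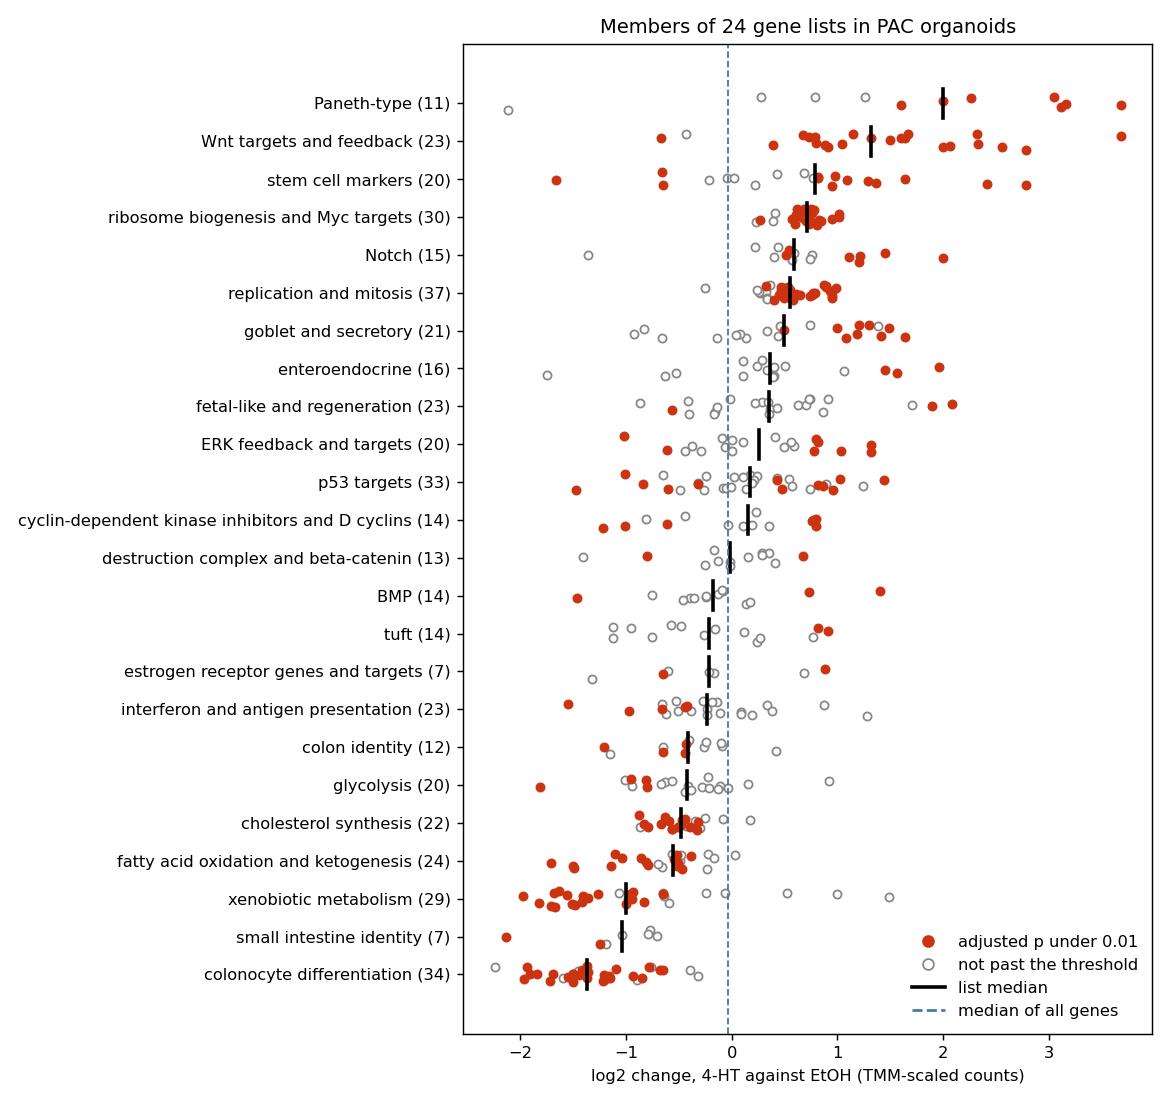
Each point is the log2 change of 1 gene, 4-HT against EtOH in PAC organoids (x axis), for 24 gene lists (rows, number of tested members in brackets, ordered by median). Filled red points had an adjusted p under 0.01, black bars mark list medians from -1.37 for colonocyte differentiation to 2.00 for Paneth-type genes, and the dashed line marks the median of all genes, -0.03.

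Wnt target and feedback genes rose almost throughout. Of 23 members tested, 21 rose and 1 fell, with a median log2 change of 1.32 against -0.03 for all genes, and without the mixed libraries 14 rose and none fell. Ascl2, a transcription factor of crypt base stem cells, was at 11.3, 10.8, 9.34 and 18.6 CPM with EtOH and at 110, 51.9, 115 and 65.4 CPM with 4-HT. Every 4-HT value was above every EtOH value, and the mixed libraries were the highest. Ascl2 rose by 2.78 ± 0.28 (edgeR, adjusted p = 8.03e-07), or by 2.23 without the mixed libraries. Nkd1, an inhibitor of Wnt signaling that binds Dishevelled, was at 3.69, 3.99, 4.01 and 3.02 CPM with EtOH and at 29.7, 14.8, 29 and 12.7 CPM with 4-HT. Its rise of 2.55 ± 0.32 was again carried furthest by the mixed libraries, and it was 1.90 without them. Sp5, a zinc finger factor switched on directly by beta-catenin, was at 7.74, 4.89, 3.45 and 8.86 CPM with EtOH and at 34.6, 26.5, 34.9 and 29.7 CPM with 4-HT. The 4 values with 4-HT were close to each other, and Sp5 rose by 2.33 ± 0.28.

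Axin2, the second scaffold of the destruction complex and a classical feedback target, moved less. It was at 50.5, 65.5, 41.5 and 45.6 CPM with EtOH and at 80.0, 83.4, 77.5 and 82.9 CPM with 4-HT. The groups did not overlap and the rise was 0.67 ± 0.19 (edgeR, adjusted p = 0.00676), and with the mixed libraries left out it was 0.71 with an adjusted p of 0.035. Notum, a secreted enzyme that removes the lipid from Wnt ligands, was low, at 0.322, 0.332, 0.240 and 0.305 CPM with EtOH and at 1.87, 0.591, 1.73 and 0.821 CPM with 4-HT. Its rise of 2.06 ± 0.53 lost the call without the mixed libraries, which held its highest values (change 1.23, adjusted p = 0.168). Pla2g2a, a secreted phospholipase known as the Mom1 modifier of Apc-driven polyps and annotated as a polymorphic pseudogene because C57BL/6 mice carry a frameshift, was at 0.215, 0.142, 0.200 and 1.72 CPM with EtOH and at 12, 2.91, 11.8 and 3.08 CPM with 4-HT. It had the highest fitted change of the list, 3.68 ± 0.76, and 2.36 without the mixed libraries (adjusted p = 0.0463). Zbtb7c was the 1 member that fell, by 0.67 ± 0.18 (edgeR, adjusted p = 0.0818 without the mixed libraries and 0.0366 with library sizes alone).

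The promoters of the leading members are shown because the Wnt response runs through short TCF/LEF sites near and far from a start. RefSeq promoter windows (GRCm38.p6; the 250 bases before the start, 5′ to 3′ on the gene's strand) were searched on both strands for CTTTGAA and CTTTGAT, which do not overlap each other, and matches are in capitals.
Sp5, chr2:70474673-70474922, plus strand: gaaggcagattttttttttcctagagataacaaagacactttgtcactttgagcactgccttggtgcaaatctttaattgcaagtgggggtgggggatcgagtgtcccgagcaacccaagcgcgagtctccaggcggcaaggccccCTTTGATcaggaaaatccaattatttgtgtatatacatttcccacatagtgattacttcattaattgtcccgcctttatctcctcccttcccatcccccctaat
Ascl2, chr7:142969265-142969514, minus strand: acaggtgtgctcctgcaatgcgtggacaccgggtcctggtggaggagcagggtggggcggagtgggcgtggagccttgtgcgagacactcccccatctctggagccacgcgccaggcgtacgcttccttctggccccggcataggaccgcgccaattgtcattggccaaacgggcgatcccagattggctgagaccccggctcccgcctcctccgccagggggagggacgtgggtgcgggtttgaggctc
Nkd1, chr8:88527383-88527632, plus strand: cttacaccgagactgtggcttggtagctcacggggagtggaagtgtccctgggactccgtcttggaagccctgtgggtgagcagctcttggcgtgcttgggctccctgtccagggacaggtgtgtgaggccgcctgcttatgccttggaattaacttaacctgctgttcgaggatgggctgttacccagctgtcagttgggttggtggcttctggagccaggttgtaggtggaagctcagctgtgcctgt
The Sp5 window held 1 match, CTTTGAT, 104 bases before the start, whereas the windows of Ascl2 and Nkd1 and all 4 windows of Lef1 held none of these letters. Of all 32851 RefSeq windows 7.48% held a match, and of the 12920 windows of genes tested 5.4% did. Of the 20 windows of the 13 Wnt list genes found there 2 did, those of Sp5 and Tnfrsf19. No window was found for Pla2g2a. The Nkd1 window precedes a start inside the annotated gene, which begins at 88521354 on chromosome 8, so the region before that first start was not searched.

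Few genes of the destruction complex, beta-catenin and its nuclear partners passed. Of 13 members of this list, 1 rose (Apc) and 1 fell (Tcf7l2), against 23.4% of all genes, and the median log2 change was -0.02. With library sizes alone 5 rose and 1 fell, with a median of 0.21. With the culture as a replicate block 1 rose and 3 fell. Ctnnb1, which encodes beta-catenin, was at 808, 763, 856 and 994 CPM with EtOH and at 737, 776, 755 and 856 CPM with 4-HT. These ranges overlapped, and the change of -0.13 ± 0.10 (edgeR, adjusted p = 0.296; 0.09 with library sizes alone) did not pass. Tcf7l2, the main TCF factor of the gut epithelium, was at 147, 156, 176 and 169 CPM with EtOH and at 87.3, 95.3, 86.3 and 103 CPM with 4-HT, and it fell by 0.80 ± 0.15 (edgeR, adjusted p = 0.000282; 0.0151 without the mixed libraries).

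Stem cell markers moved in both directions. Of 20 tested, 10 rose and 3 fell, with a median of 0.79, and without the mixed libraries 6 rose and none fell. Lgr5, the R-spondin receptor that marks crypt base stem cells, was at 23.2, 26.4, 15.8 and 33.5 CPM with EtOH and at 85.8, 75.4, 80.9 and 65.6 CPM with 4-HT. It rose by 1.64 ± 0.27 (edgeR, adjusted p = 6.88e-05) with no overlap. Smoc2, a matricellular protein of the crypt base, rose by 1.36 ± 0.27 and the phosphatase gene Ptpro by 2.41 ± 0.30. The 3 members that fell were Clca4b at -1.66 ± 0.33, the vitamin D receptor gene Vdr at -0.66 ± 0.17 and Prom1, which encodes the membrane protein CD133, at -0.65 ± 0.13. These 3 and Smoc2 lost the call when the mixed libraries were left out (adjusted p from 0.0127 to 0.0411), with changes of -0.67 for Vdr, -0.38 for Prom1, -1.38 for Clca4b and 1.22 for Smoc2.

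**Figure D3:**
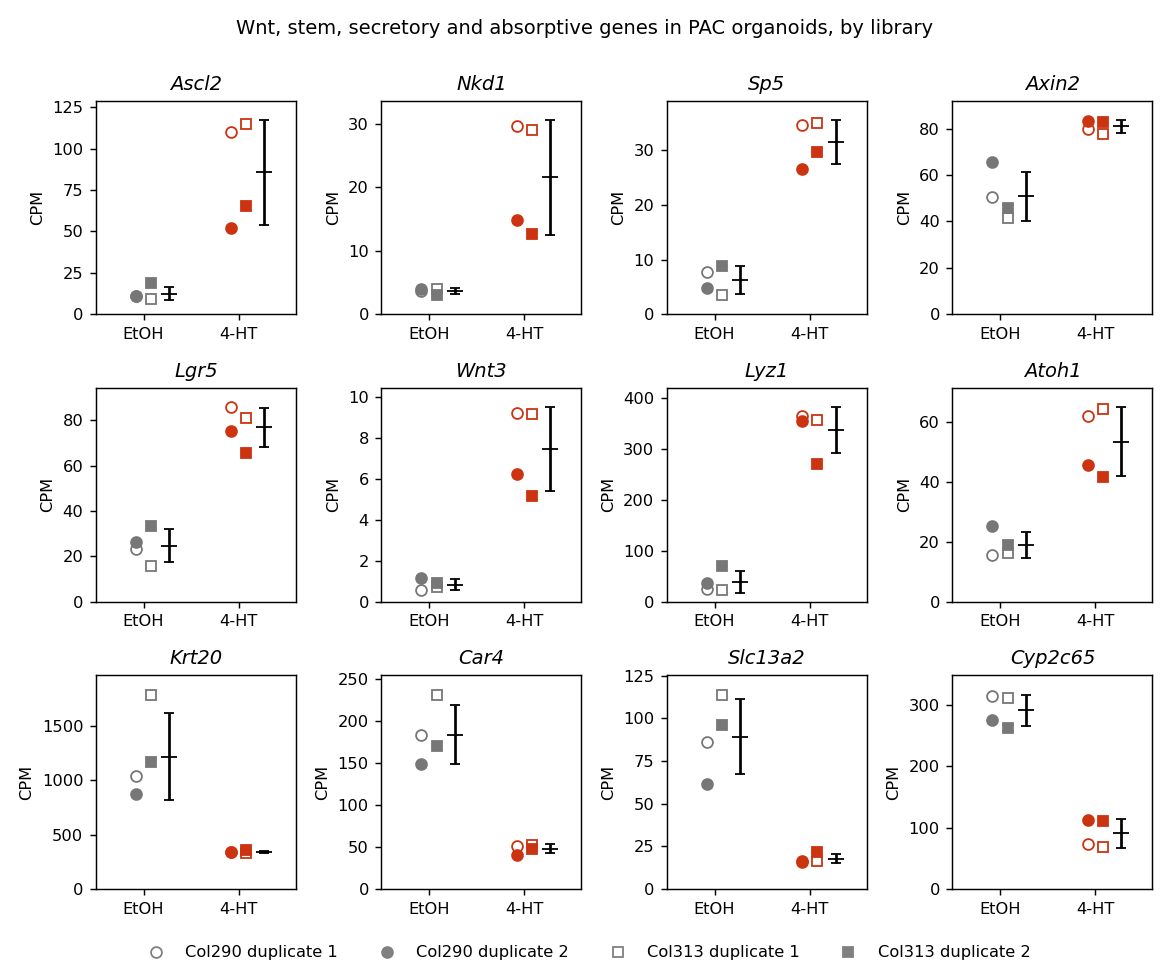
Points give the TMM-scaled CPM of 12 genes in each PAC library (circles Col290, squares Col313, open duplicate 1, filled duplicate 2; the open 4-HT symbols are the mixed libraries), and black bars give the mean ± SD of 4 libraries. In each of the 12 genes the 4 values with 4-HT lie to 1 side of the 4 with EtOH; for Ascl2 and Nkd1 the mixed libraries are highest.

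Genes of Paneth cells, the antimicrobial and niche-forming cells of the small intestinal crypt that the normal colon lacks, rose as a list with a median of 2.00. Of 11 tested, 7 rose and none fell, and 6 rose without the mixed libraries. Lyz1, the Paneth cell lysozyme, was at 25.2, 36.9, 23.2 and 70.2 CPM with EtOH and at 364, 355, 357 and 270 CPM with 4-HT. The 4-HT values were all above the EtOH ones, and Lyz1 rose by 3.11 ± 0.49 (edgeR, adjusted p = 4.82e-05) and by 3.01 without the mixed libraries. Itln1, a lectin of secretory cells, was at 6.38, 9.64, 6.49 and 12.4 CPM with EtOH and at 85.7, 58.1, 87.7 and 57.6 CPM with 4-HT, a rise of 3.05 ± 0.40. Wnt3, the Wnt ligand that Paneth cells supply to stem cells, was at 0.573, 1.14, 0.721 and 0.916 CPM with EtOH and at 9.21, 6.27, 9.18 and 5.17 CPM with 4-HT. It rose by 3.16 ± 0.33 with no overlap. Mmp7, the protease that processes alpha-defensins, rose by 2.00 ± 0.37. With the culture as a replicate block 9 of the 11 rose. The 3 listed alpha-defensin genes did not pass, with log2 changes of 0.79 for Defa24 and 1.26 for Defa17, but Defa24 and Defa17 passed with the block (adjusted p = 0.00898 and 0.00759). Defa30 was at 0.107, 0.760, 0.321 and 18.7 CPM with EtOH and at 0.604, 1.41, 0.624 and 1.98 CPM with 4-HT. Its fitted change of -2.11 rested on Col313_EtOH2, since it was higher with 4-HT in the other 3 cultures. These near-identical genes can share reads. In bulk RNA, more cells of a type and more RNA per cell cannot be told apart, here and for the other cell-type lists.

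Of 21 genes of goblet and other secretory cells, 9 rose and none fell, with a median of 0.49. Without the mixed libraries 3 rose, and with the culture as a replicate block 11 rose and 3 fell. Atoh1, the factor that commits crypt cells to the secretory fate, was at 15.7, 25.2, 16.4 and 19 CPM with EtOH and at 62.2, 45.6, 64.6 and 41.7 CPM with 4-HT. It rose by 1.49 ± 0.21 with no overlap (edgeR, adjusted p = 1.51e-05). Gfi1 and Foxa3, transcription factors of secretory cells, rose by 1.64 ± 0.28 and 1.41 ± 0.15, and Retnlb, a goblet cell antimicrobial protein, rose by 1.30 ± 0.37, a call lost without the mixed libraries (adjusted p = 0.0539). Muc2, the main mucin of goblet cells, was at 533, 787, 705 and 572 CPM with EtOH and at 675, 879, 687 and 612 CPM with 4-HT. Those ranges overlapped, and the change of 0.14 ± 0.25 did not pass (edgeR, adjusted p = 0.704). The summed level of the list was 2900 to 3660 CPM with EtOH and 3070 to 3640 CPM with 4-HT.

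Among 16 enteroendocrine genes 3 rose and none fell, a share passing below the 23.4% of all genes. The 3 were early transcription factors of this hormone-producing lineage. Neurog3, its master regulator, was at 3.80, 3.23, 3.29 and 3.40 CPM with EtOH and at 14.7, 13.5, 14.9 and 10.1 CPM with 4-HT, a rise of 1.96 ± 0.25 with no overlap. Pax4 rose by 1.56 ± 0.44 and Insm1 by 1.45 ± 0.33, and neither passed without the mixed libraries (adjusted p = 0.0976 and 0.0463). Chga and Chgb, the granins of mature cells, had changes of 0.40 ± 0.45 and 0.33 ± 0.35 and overlapping groups, with Col313_EtOH1 the highest library for both at 135 and 204 CPM. Of 14 tuft cell genes only Sox9 (0.91 ± 0.12) and Cd24a (0.82 ± 0.11) rose, near the 11.2% of all genes that did, and both are genes that crypt base cells express as well. Dclk1, which defines tuft cells, was at 7.34, 7.27, 8.82 and 2.56 CPM with EtOH and at 3.80, 5.36, 4.26 and 5.20 CPM with 4-HT and did not pass.

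In the Notch pathway, by which neighbouring crypt cells decide between absorptive and secretory fate, 7 of 15 genes rose and none fell, with a median of 0.59. Without the mixed libraries 2 rose. Of the ligands, Dll4 rose by 1.20 ± 0.21 (0.76 with an adjusted p of 0.0194 without those libraries). Of the glycosyltransferases that tune the receptors, Mfng rose by 2.00 ± 0.47 and Lfng by 1.21 ± 0.18, and of the targets, Hes5 rose by 1.45 ± 0.34. Hes1, a main Notch target of the crypt named after its values were seen, was at 58.2, 77.5, 58.6 and 76.1 CPM with EtOH and at 105, 87.1, 106 and 87.1 CPM with 4-HT. It rose by 0.51 ± 0.14 (edgeR, adjusted p = 0.00565), but not past the threshold with the culture as a replicate block (0.0132) or without the mixed libraries (change 0.37, adjusted p = 0.126). Mfng and Hes5 stayed under 4 CPM in every PAC library and lost the call without the mixed libraries (adjusted p = 0.0724 and 0.0928). The receptors Notch1 (0.44 ± 0.14) and Notch2 (0.57 ± 0.29) did not pass, and Notch1 did with the culture as a replicate block (adjusted p = 0.00316).

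Genes of the mature absorptive colonocyte fell. Of 34 tested, 26 fell and none rose, with a median of -1.37, and 13 fell without the mixed libraries. Their summed level was 39900 to 43800 CPM with EtOH and 15800 to 22600 CPM with 4-HT. Krt20, the keratin of the colonic surface, was at 1040, 871, 1790 and 1170 CPM with EtOH and at 337, 337, 332 and 357 CPM with 4-HT. The 4 values with 4-HT were nearly equal, and Krt20 fell by 1.84 ± 0.29 (edgeR, adjusted p = 5.55e-05). Car4, a membrane carbonic anhydrase, was at 184, 149, 232 and 171 CPM with EtOH and at 51.6, 40.2, 52.6 and 48.2 CPM with 4-HT, a log2 change of -1.93 ± 0.53 with no overlap. Clca4a fell by 1.96 ± 0.28. Sis, the brush border enzyme sucrase-isomaltase, was at 88.3, 56.4, 147 and 34.1 CPM with EtOH and at 17.8, 26.5, 17.4 and 25.3 CPM with 4-HT and fell by 1.91 ± 0.44. Without the mixed libraries the log2 changes of Car4 and Sis were -2.06 and -1.65, and both lost the call (adjusted p = 0.0469 and 0.0462).

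Genes of detoxification and lipid metabolism fell. Of 29 genes of xenobiotic metabolism 19 fell and none rose, with a median of -1.0, and 6 fell without the mixed libraries. Cyp2c65, a cytochrome P450 of the gut, was at 263 to 315 CPM with EtOH and at 73.7, 112, 68.1 and 111 CPM with 4-HT. It fell by 1.68 ± 0.20 (edgeR, adjusted p = 3.02e-06), furthest in the mixed libraries. The esterase gene Ces2e fell by 1.82 ± 0.33. The aryl hydrocarbon receptor targets Cyp1a1 and Cyp1b1 had changes of 0.52 ± 0.36 and 1.49 ± 0.72 that did not pass; with the culture as a replicate block both did (adjusted p = 0.0088 and 0.000259).

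Of 24 genes of fatty acid oxidation and ketogenesis, the main energy route of the colonocyte, 15 fell and none rose (median -0.55; 4 fell without the mixed libraries and 9 with library sizes alone). Slc25a20, the mitochondrial carrier of acylcarnitine, was at 427, 326, 498 and 425 CPM with EtOH and at 170 to 209 CPM with 4-HT, a log2 change of -1.14 ± 0.17 with no overlap. Fabp2, a fatty acid binding protein, fell by 1.5 ± 0.24, and Pdk4, the kinase that restrains pyruvate dehydrogenase, by 1.71 ± 0.37 (adjusted p = 0.0159 without the mixed libraries). Of 22 cholesterol synthesis genes 15 fell and none rose (median -0.48), but with library sizes alone 5 fell and 1 rose, and without the mixed libraries 3 fell. Hmgcs1, an early enzyme of the pathway, was at 622, 557, 849 and 697 CPM with EtOH and at 351, 420, 330 and 431 CPM with 4-HT and fell by 0.83 ± 0.15. Hmgcs1 lost the call without the mixed libraries (adjusted p = 0.0169).

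Of 20 glycolysis genes 4 fell and none rose (median -0.42), where 12.2% of all genes fell and 11.2% rose. With the culture as a replicate block 7 fell, where 18.4% of all genes did, and without the mixed libraries 1 did at a median of -0.80. With library sizes alone 2 fell and 1 rose, at a median of -0.19. The glucose transporter gene Slc2a1 was at 244 to 384 CPM with EtOH and at 156 to 176 CPM with 4-HT, with no overlap, and fell by 0.81 ± 0.16 (edgeR, adjusted p = 0.000386). Hk2 had a change of -0.11 ± 0.27, which was 0.12 with library sizes alone.

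Regional identity was read from 2 lists. Of 12 colon identity and epithelial genes 4 fell and none rose, and with the culture as a replicate block 6 fell and 1 rose. Without the mixed libraries 1 fell, and with library sizes alone 2 fell and 1 rose. Car1, the carbonic anhydrase typical of the colon, was at 15700, 15600, 16300 and 16900 CPM with EtOH and at 5050, 9150, 4940 and 8690 CPM with 4-HT. It fell by 1.21 ± 0.25 (edgeR, adjusted p = 0.000602), about equally low in the 2 mixed libraries, and its adjusted p was 0.0395 without them. The hindgut factors Cdx1 and Cdx2 had changes of -0.09 ± 0.13 (0.14 with library sizes alone) and -0.40 ± 0.22 and did not pass. Of 7 small intestine genes 2 fell and none rose: Rbp2, a retinol carrier, by 2.13 ± 0.31, and Slc10a2, the ileal bile acid transporter, by 1.24 ± 0.35. With the block 4 fell, and without the mixed libraries 1 did, the call of Slc10a2 being lost (adjusted p = 0.165).

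Cell division genes rose by moderate amounts. Of 37 replication and mitosis genes 29 rose and none fell, with a median of 0.55, and 11 rose without the mixed libraries. The helicase subunit Mcm2 was at 78.9, 72.6, 65.0 and 77.3 CPM with EtOH and at 163, 118, 171 and 129 CPM with 4-HT. It rose by 0.99 ± 0.16 with no overlap (edgeR, adjusted p = 6.14e-05), and Mcm3, Mcm5 and Mcm7 each rose by 0.95, of which Mcm5 lost the call without the mixed libraries (adjusted p = 0.0192). Mki67, the proliferation marker, was at 117, 163, 95.6 and 116 CPM with EtOH and at 135, 171, 131 and 155 CPM with 4-HT. Its groups overlapped and its change of 0.27 ± 0.14 did not pass (edgeR, adjusted p = 0.144; 0.0085 with the block), and the same held for Top2a at 0.32 ± 0.15.

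Among 14 cyclins, cyclin-dependent kinases and their inhibitors 3 rose and 3 fell, and without the mixed libraries 1 rose and 2 fell, and with library sizes alone 6 rose and 2 fell. The kinase Cdk4 rose by 0.80 ± 0.12, its partner Ccnd1 by 0.80 ± 0.21 and the S phase factor E2f1 by 0.76 ± 0.13. Cdkn2b, which encodes the inhibitor p15, was at 281, 230, 282 and 222 CPM with EtOH and at 104, 131, 105 and 96.9 CPM with 4-HT, a log2 change of -1.22 ± 0.13 with no overlap. Cdkn1c, which encodes p57, fell by 0.61 ± 0.14. The calls of Ccnd1, E2f1 and Cdkn1c were lost without the mixed libraries (changes of 0.87, 0.63 and -0.45, adjusted p = 0.0208, 0.0102 and 0.0652). Ribosome biogenesis and Myc target genes rose more uniformly: 27 of 30 rose and none fell, with a median of 0.71, and 21 rose without the mixed libraries. Srm, a polyamine synthesis enzyme, was at 71.5, 77.7, 71.4 and 82.8 CPM with EtOH and at 168, 133, 177 and 132 CPM with 4-HT and rose by 1.01 ± 0.12. Cad, the enzyme that starts pyrimidine synthesis, rose by 1.01 ± 0.18, and the nucleolar protein gene Nop56 by 0.84 ± 0.11. Myc itself was at 84.0, 141, 82.4 and 153 CPM with EtOH and at 317, 239, 323 and 268 CPM with 4-HT. It rose by 1.32 ± 0.18 (edgeR, adjusted p = 1.64e-05), with no overlap between the groups.

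Of 33 p53 target genes tested, 7 rose and 5 fell, where 11.2% of all genes rose and 12.2% fell. The median was 0.17, and the counts were 12 and 4 with a median of 0.39 with library sizes alone. The block gave 12 rises and 7 falls, and leaving out the mixed libraries gave 3 and 3. Cdkn1a, the p21 cell cycle inhibitor and a main readout of p53 activity, was at 417, 346, 772 and 405 CPM with EtOH and at 260, 220, 261 and 222 CPM with 4-HT. The groups did not overlap, Col313_EtOH1 was the highest library, and Cdkn1a fell by 1.01 ± 0.21 (edgeR, adjusted p = 0.000686). Fas, a death receptor gene, was at 8.74, 5.56, 7.90 and 4.47 CPM with EtOH and at 2.78, 1.95, 2.74 and 2.12 CPM with 4-HT, a log2 change of -1.47 ± 0.23 with no overlap. Sesn1, a stress-induced regulator of TOR signaling, fell by 0.84 ± 0.17 (adjusted p = 0.0304 without the mixed libraries) and the desmosome gene Perp by 0.60 ± 0.09.

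Phlda3, an inhibitor of AKT, was at 13.4, 18.4, 8.5 and 23.2 CPM with EtOH and at 41.3, 41.7, 41.6 and 48.0 CPM with 4-HT. It rose by 1.44 ± 0.37, with no overlap, and its change without the mixed libraries was 1.5 (adjusted p = 0.0233). Plk2 rose by 1.02 ± 0.15, the nuclease gene Aen by 0.86 ± 0.11 and Gtse1, which is also a gene of dividing cells, by 0.96 ± 0.13. Mdm2, the ubiquitin ligase that p53 induces as its own brake, was at 60.8, 54.3, 60.0 and 55.3 CPM with EtOH and at 60.9, 67.0, 61.2 and 70.4 CPM with 4-HT, a change of 0.17 ± 0.09 that did not pass (edgeR, adjusted p = 0.151). In AC organoids, which keep normal Trp53, the log2 changes were -0.62 for Cdkn1a, -1.23 for Fas, 1.01 for Phlda3 and 0.23 for Mdm2, and these 4 did not pass (edgeR, adjusted p = 0.157, 0.0105, 0.184 and 0.24). Of the 33 p53 targets 4 passed in AC, where 980 of all 13519 genes did. These 4 had the same direction as in PAC: Sesn1 at -1.03, Perp at -0.57, Aen at 0.72 and Gtse1 at 0.98 (edgeR, adjusted p = 0.0042, 0.00362, 0.00321 and 0.00125). For these 8 genes none of the differences between PAC and AC passed the test (adjusted p = 1.0 for each).

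**Figure D4:**
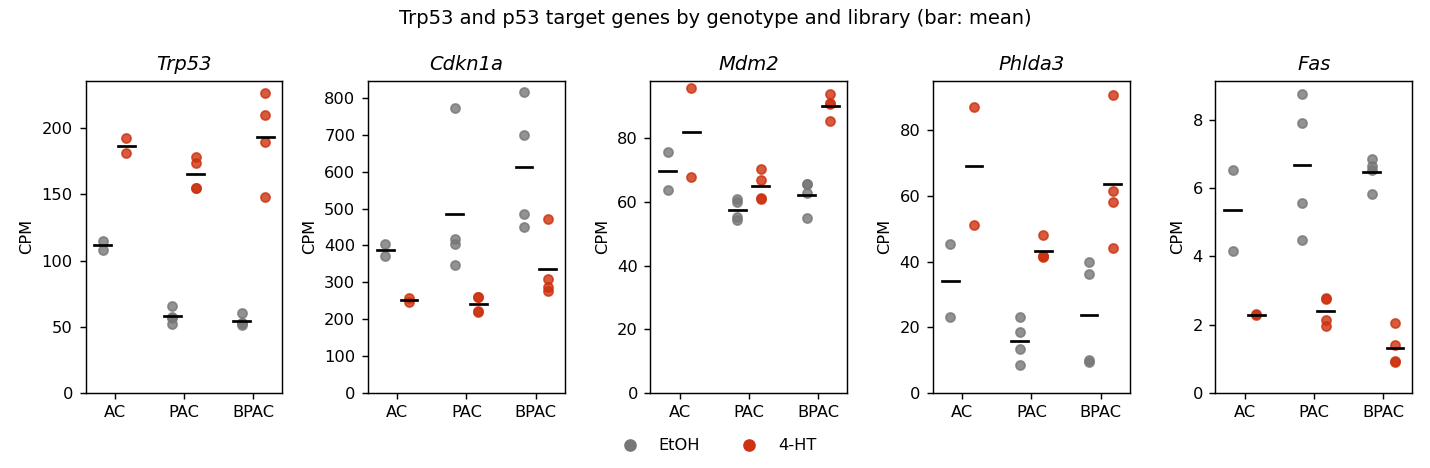
Points give the TMM-scaled CPM of Trp53 and 4 p53 target genes in each library of AC (2 per treatment), PAC and BPAC (4 per treatment each), with EtOH in gray and 4-HT in red, and bars give means. Trp53 with EtOH averages 112 CPM in AC and 57.9 CPM in PAC, and in PAC Cdkn1a and Fas are lower and Phlda3 is higher with 4-HT in every library.

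Feedback genes of the ERK cascade, which reports growth factor signaling, were mixed: of 20, 6 rose and 2 fell, with a median of 0.26, and without the mixed libraries 3 rose and 1 fell. Etv4, an ERK-induced factor, was at 23.4, 19.1, 20.7 and 17.3 CPM with EtOH and at 46.4, 34.5, 49.6 and 33.6 CPM with 4-HT and rose by 1.03 ± 0.14. Ier3 rose by 1.32 ± 0.26 and Fosl1 by 0.82 ± 0.18, while the ERK phosphatase gene Dusp5 fell by 1.02 ± 0.20 and Spry2 by 0.61 ± 0.11. Ier3, Fosl1 and Spry2 lost the call without the mixed libraries (adjusted p = 0.0253, 0.0294 and 0.0126). Dusp4 had a change of 0.00 ± 0.20. Of 14 BMP pathway genes, which restrain stem cells toward the surface, 2 rose and 1 fell, a share near that of all genes (2 and 3 with the block, 1 and 0 without the mixed libraries): the ligand Bmp2 fell by 1.46 ± 0.33, the ligand Bmp7 rose by 1.40 ± 0.20 and the decoy receptor Bambi rose by 0.73 ± 0.16. The calls lost there without the mixed libraries were those of Bmp2 and Bambi (changes of -1.5 and 0.52, adjusted p = 0.0207 and 0.0497).

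Of 23 genes of the fetal-like, regenerating epithelium 2 rose and 1 fell, below the 23.4% of all genes that passed. With the block 9 rose and 1 fell, where 16.5% of all genes rose and 18.4% fell. With library sizes alone 8 rose and none fell, where 25.1% of all genes rose and 5.45% fell, and without the mixed libraries 1 rose. Ptgs2, the inducible cyclooxygenase, was at 2.65, 4.42, 1.84 and 7.02 CPM with EtOH and at 9.87, 13.7, 11.3 and 24.2 CPM with 4-HT and rose by 1.89 ± 0.43 (edgeR, adjusted p = 0.00153). The marker most used for this state, Ly6a, had a change of 0.29 ± 0.12 and did not pass. Of 23 interferon and antigen presentation genes 5 fell and none rose, a share passing near that of all genes, with a median of -0.23 (0.00 with library sizes alone, where 2 fell), and 2 fell without the mixed libraries. Ifit1 fell by 1.55 ± 0.41, the factor Irf7 by 0.97 ± 0.15 and the class I light chain B2m by 0.66 ± 0.13, and Ifit1 and B2m lost the call without the mixed libraries (adjusted p = 0.121 and 0.0313). Of 7 estrogen receptor genes and targets, listed because 4-HT binds that receptor, 1 rose and 1 fell, near the 23.4% of all genes that passed. The receptor gene Esr1 fell by 0.65 ± 0.11 and Greb1 rose by 0.88 ± 0.20, the latter with an adjusted p of 0.0232 (edgeR) without the mixed libraries.

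The 10 largest rises were taken over protein-coding genes that passed, had a mean of 50 counts or more and showed no overlap, and they held Wnt3, Lyz1, Itln1, Ascl2, Nkd1 and Ptpro. Stra6, the retinol uptake receptor, led them. It was at 0.107, 0.427, 0.481 and 1.15 CPM with EtOH and at 7.70, 3.36, 7.83 and 13 CPM with 4-HT, a rise of 3.88 ± 0.85 (edgeR, adjusted p = 0.00107; 3.91 without the mixed libraries). The cholesterol exporter Abcg1 rose by 2.42 ± 0.35, Fam89a by 2.98 ± 0.51 and Psapl1 by 2.72 ± 0.50. Abcg1 was at 0.322, 0.760, 0.802 and 0.878 CPM with EtOH and at 3.14, 4.18, 3.67 and 3.83 CPM with 4-HT, so the mixed libraries did not stand out.

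The 10 largest falls were all under 120 CPM with EtOH. Mcoln3, a lysosomal channel, led at 4.26, 2.56, 6.89 and 3.09 CPM with EtOH and 0.634, 0.409, 0.762 and 0.548 CPM with 4-HT, a log2 change of -2.82 ± 0.44 (edgeR, adjusted p = 4.82e-05). Slc13a2, a citrate transporter of absorptive cells, was at 86.0, 61.3, 114 and 96.1 CPM with EtOH and at 16.3, 16, 16.6 and 21.6 CPM with 4-HT, a log2 change of -2.34 ± 0.37. Akr1c18, a steroid-reducing enzyme, was at 13.6, 7.84, 15.6 and 6.07 CPM with EtOH and at 1.72, 2.00, 2.04 and 2.05 CPM with 4-HT and fell by 2.46 ± 0.34. Wnt5a, a non-canonical Wnt ligand, was at 6.95, 10.7, 2.45 and 2.33 CPM with EtOH and at 0.725, 2.32, 0.658 and 0.992 CPM with 4-HT. With EtOH it was higher in both Col290 libraries than in the Col313 ones, a difference that did not pass (adjusted p = 0.442). With 4-HT it fell by 2.28 ± 0.62, and the call was lost without the mixed libraries (adjusted p = 0.119). The monoacylglycerol lipase Mgll (-2.73 ± 0.47), 2010109I03Rik (-2.69 ± 0.65), Rnf152 (-2.44 ± 0.58), the esterase Aadac (-2.29 ± 0.57), the epithelial kinase Ptk6 (-2.25 ± 0.50) and Apol10a (-2.20 ± 0.32) made up the rest. Of these, Rnf152, Aadac and Ptk6 also lost the call without those libraries (adjusted p = 0.0389, 0.0111 and 0.0424).

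The 2 donor lines were also set against each other. With EtOH, 3 of 13519 genes passed the test of Col313 against Col290 (0.0222%; 1083 at an unadjusted p under 0.05, and 32 with DESeq2): Cdk5rap1 and Trpv3 were higher in Col313 and Ctsf, a lysosomal protease, was higher in Col290. Ctsf was at 21.6 and 21.8 CPM in the Col290 libraries and at 3.89 and 3.02 CPM in the Col313 ones. With 2 libraries a line, genes that plainly differed did not pass, such as Xist and the Y-linked genes and Nxpe5, picked after its values were seen, at 0 CPM in both Col290 libraries and at 12.7 and 11.6 CPM in the Col313 ones. The 4-HT change differed between the lines for no gene by edgeR (0.0%; 273 genes at an unadjusted p under 0.05) and for 3 genes by DESeq2 (318 at an unadjusted p under 0.05). This comparison sets 2 libraries against 2 in each line, with a mixed library in both. The 273 and 318 genes are fewer than an unadjusted p under 0.05 gives by chance over 13519 genes. With the culture as a replicate block 839 were under 0.05 and 4 passed. The lack of calls by edgeR does not show that the lines responded alike.

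Set beside AC, no gene had a 4-HT change in PAC that differed past the threshold (edgeR, 0.0%; 198 genes at an unadjusted p under 0.05; DESeq2 also called none, with 231). The 198 and 231 genes are fewer than an unadjusted p under 0.05 gives by chance over 13519 genes. So are the 568 found with the culture as a replicate block. The test was thus conservative, and AC rests on 1 donor line. The lack of calls does not show that PAC and AC responded alike. The list medians were side by side 1.32 in PAC and 1.29 in AC for Wnt targets, -1.37 and -1.64 for colonocyte differentiation, 2.00 and 1.70 for Paneth-type genes, 0.17 and 0.25 for p53 targets and 0.71 and 0.68 for ribosome biogenesis. Of the 3166 genes called in PAC, 3152 had a change of the same sign in AC, where 980 genes were called by themselves. These 3166 were picked for their change in PAC, and over all genes the changes in PAC and AC correlated at 0.784. Genes near the threshold in 1 genotype are not shown to differ from the other.

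BPAC organoids carry the Braf allele that PAC lack and come from other donors, the lines Col287 and Col312, so allele and donor cannot be told apart. Here 482 genes (3.57%) had a 4-HT change that differed, 232 higher (1.72%) and 250 lower (1.85%) in BPAC. With the culture as a replicate block 1165 genes passed, without the mixed libraries 341, and with only the libraries of these genotypes 87. With library sizes alone 143 were higher and 245 lower. The genes named next were chosen for the size of this difference. Lgals1, which encodes galectin-1, changed by 1.25 ± 0.35 in PAC and by 4.28 in BPAC, a difference of 3.03 (edgeR, adjusted p = 0.000642). Ly6c1, a surface protein of the Ly6 family, had log2 changes of 0.64 ± 0.22 in PAC and 2.73 in BPAC, and Arhgap45 of 0.26 ± 0.32 and 2.52. Neither passed in PAC (adjusted p = 0.0253 and 0.555), but Ly6c1 did with the block (0.00379). In the other direction, Edn2, an endothelin, fell by 1.23 ± 0.28 in PAC with -4.34 in BPAC, and Cyp2c68 by 1.29 ± 0.35 with -4.68. The PAC changes of Lgals1, Edn2 and Cyp2c68 themselves did not pass without the mixed libraries (changes of 0.60, -1.0 and -1.07, adjusted p = 0.294, 0.0468 and 0.0943). Abcg8, a sterol transporter, was at 1.90, 1.90, 3.93 and 2.33 CPM with EtOH and at 3.23, 1.14, 4.05 and 2.60 CPM with 4-HT in PAC. Its change there was 0.14 ± 0.47 and did not pass, against -3.80 in BPAC.

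**Figure D5:**
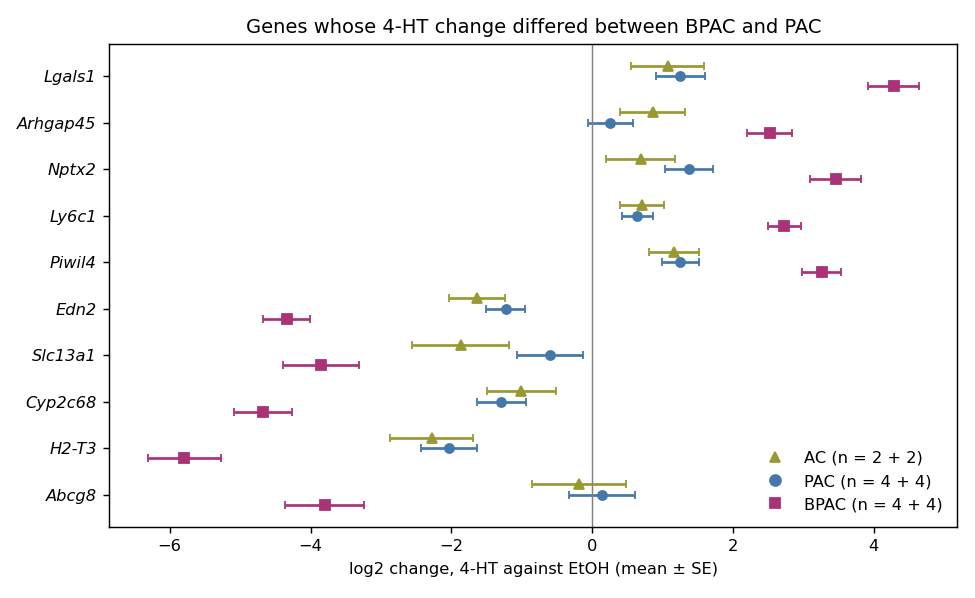
Points give the fitted log2 change with 4-HT (x axis, bars ± SE) in AC, PAC and BPAC for the 10 genes with the largest differences between BPAC and PAC. The genes were chosen for the distance between PAC and BPAC, and for Lgals1 the points lie at 1.25 in PAC, 1.07 in AC and 4.28 in BPAC.

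The lists place these differences. Of 34 colonocyte differentiation genes the change was lower in BPAC for 11 and higher for none, with medians of -1.37 in PAC and -2.35 in BPAC. Sis, for example, changed by -1.91 ± 0.44 in PAC and by -5.01 in BPAC (difference -3.10, adjusted p = 0.00343). Of 29 xenobiotic genes 6 were lower in BPAC, of 23 interferon and antigen presentation genes 4 were lower, including Irf7 and B2m, and of 37 replication and mitosis genes 6 were higher. With the block these counts were 16, 6 and 13, and 18 for the colonocyte genes, where 649 of all 13519 genes were lower and 516 higher. None of the 23 Wnt targets, 20 stem cell markers or 11 Paneth-type genes differed past the threshold. Only 3.57% of all genes did, so few or none would be expected in lists of this size. With the culture as a replicate block the stem cell marker Vdr and the Paneth-type gene Itln1 differed (edgeR, adjusted p = 0.000554 and 0.00893). The medians of the 3 lists were 1.32, 0.79 and 2.00 in PAC and 1.58, 0.62 and 1.44 in BPAC. Of the ERK genes 2 of 20 were higher in BPAC, and with the block 6 were higher and 1 lower. Etv4 changed by 1.03 ± 0.14 in PAC and by 2.08 in BPAC (adjusted p = 0.00214). Ppara, the nuclear receptor of fatty acid oxidation, was at 14.7, 13.1, 18.2 and 12.2 CPM with EtOH and at 9.15, 9.96, 9.11 and 8.56 CPM with 4-HT in PAC. Its change there of -0.66 ± 0.21 missed the threshold (edgeR, adjusted p = 0.0141; 0.00364 with the block), and in BPAC it was -2.81 (difference -2.15, adjusted p = 0.000139).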

How the data were processed

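RNA of 28 organoid libraries was sequenced on an Illumina instrument, trimmed with Trimmomatic 0.39 and aligned to GRCm38 with STAR 2.5.2b, per the submitters' notes. The counting program, annotation and strand setting are not given in the sources used here. The authors deposited raw counts per gene for 13519 genes, of which 13479 matched the GENCODE annotation. Totals were 20577276 to 40068718 counts per library and limit the precision of low genes.

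Groups came from the labels. Counts were scaled by TMM and tested with edgeR 4.0.16 (R 4.3.3; quasi-likelihood test, 28 libraries in 8 combinations of genotype and treatment, Benjamini-Hochberg over all genes, adjusted p under 0.01; steps checked on simulated data). CPM are TMM-scaled, and log2 CPM used a prior count of 2. Alternatives used DESeq2 1.42.0, limma 3.58.1, other scalings, filters, subsets and a block for the culture. EtOH and 4-HT libraries of a culture come from the same donor line and deviated together (r = 0.245, 0.459, 0.529 and 0.476), so the block was run. In duplicate 1 the correlation was not specific to the culture: Col290_EtOH1 and Col313_EtOH1 correlated about as well with the mixed library of the other line (r = 0.260 and 0.44).

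Genes named are Apc and Trp53, the 10 largest rises and falls (protein-coding, at least 50 counts on average, no overlap), the first 2 members and up to 4 of the largest changes each way of each list, and up to 5 genes each way of the other contrasts; line genes, defensins, Hes1 and single remaining list members were added after their values were seen, and 4 genes that the rule names are not reported here. The members and the 26 lists were chosen with earlier results of these data known. Promoters are RefSeq windows.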

Additional observations from a re-analysis of the deposited data

Results flagged for a closer look

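The spread within each group of 4 PAC libraries was checked for the 147 named genes in 294 groups. In 14 groups (4.76%) a library's gap to the next was larger, as a share of the range, than Dixon's critical value. That value is set to flag 5% of groups of independent libraries. The 4-HT groups hold the near-identical mixed libraries, and genes are not independent of each other, so the share cannot be judged against 5%. With 4-HT, Col313_4HT2 was the outlying library in 5 of the cases listed first here: lowest for Lyz1 (0.911 of the range), Mmp7 (0.895) and Irf7 (0.853) and highest for Slc13a2 (0.879) and Phlda3 (0.931). Col290_4HT1 was lowest for Akr1c18 (0.851) and Col290_4HT2 for Bmp2 (0.839). With EtOH, Col313_EtOH2 was highest for Pla2g2a (0.863) and lowest for Dclk1 (0.843), and Col313_EtOH1 was lowest for Cad (0.947) and highest for Hnf4a (0.860). Col290_EtOH2 was lowest for Mfng (0.966) and Gata4 (0.903), and Col290_EtOH1 was lowest for Abcg1 (0.849).

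The 4-HT change differed between BPAC and PAC, by the test of the difference itself, for 18 named genes. It was higher in BPAC for Lgals1 (3.03 on the log2 scale), Arhgap45 (2.26), Nptx2 (2.09), Ly6c1 (2.08), Piwil4 (2.01), Greb1 (1.45), Etv4 (1.06) and Ly6a (0.74). It was lower in BPAC for Abcg8 (-3.94), H2-T3 (-3.76), Cyp2c68 (-3.38), Slc13a1 (-3.24), Edn2 (-3.11), Sis (-3.10), Apol10a (-2.35), Ppara (-2.15), Irf7 (-1.12) and B2m (-0.84).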

How the results depend on the processing

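The count of genes changed by 4-HT in PAC (3166) stayed within 1.5 times with other scalings, filters and tools, with the mixed libraries summed (2259), with duplicate 1 alone (3968) and with the culture as a replicate block (4717). It was 4960 at an adjusted p under 0.05, 2036 with PAC libraries alone, 957 without the mixed libraries, 910 without duplicate 1 of PAC with the block, 336 in Col290 alone, 1147 in Col313 alone and 7 in duplicate 2 alone, as many PAC libraries as duplicate 1 alone but without the mixed pair; the cause was not tested. Leaving out 1 culture gave 1422 (without Col313 duplicate 1) to 2841. The 957 and the 2259 shared 944 and 2255 genes with the 3166. The count for BPAC minus PAC (482) was 895 with DESeq2, 1165 with the culture as a replicate block, 1233 at an adjusted p under 0.05, 87 with these genotypes alone, 175 in duplicate 1 and 1 in duplicate 2 alone, and 167 (without Col287 duplicate 1) to 610 when 1 culture was left out. PAC minus AC stayed at 0 in every setting run. The line difference with EtOH (3) was 32 with DESeq2 and 10 at an adjusted p under 0.05, and that of the 4-HT change (0) was 3 with DESeq2 and 4 with the block.

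Genes that missed the threshold changed sign. With library sizes alone these were Ctnnb1 (0.09), Hk2 (0.12), Cdx1 (0.14) and Cdk5rap1 (0.12). Without the mixed libraries they were Dusp4 (-0.17), Hk2 (0.09) and Abcg8 (-0.41), and with them summed Dusp4 (-0.05) and Abcg8 (-0.01). In Col313 alone they were Chgb (-0.04), Dusp4 (-0.15) and Ctsf (0.64), and in Col290 alone Hk2 (0.01) and Cdk5rap1 (0.66). In duplicate 1 alone they were Dusp4 (-0.11) and Hk2 (0.06), and in duplicate 2 alone Dclk1 (0.11) and Abcg8 (-0.17). Without duplicate 1 and with the block they were Dclk1 (0.26), Abcg8 (-0.24) and Cdk5rap1 (0.12), which was 0.05 with the block and 0.09 with limma. Leaving out 1 culture moved Dusp4 between -0.06 and 0.15, Abcg8 between -0.06 and 0.28 and Cdk5rap1 between -0.29 and 0.20. The cause was not tested. Among the 147 named genes 53 calls were lost without the mixed libraries, 13 with library sizes alone and none with the block, with which 10 calls were gained. Hes1, added later and not among the 147, did lose its call with the block. At these depths, genes under about 1 CPM rest on few counts.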
